A study of Homo sapiens with 12 samples.

Results

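MDA-MB-468 is an established human breast cancer cell line of the basal-like type. The comparison described here set 3 RNA sequencing libraries of MDA-MB-468 cells that stably carried a pCDH vector with THRB, the gene of thyroid hormone receptor beta (here called the TRB pool), after 24 hours of the thyroid hormone T3 at 10 nM, against 3 libraries of the same pool after its vehicle, sodium hydroxide. They were chosen by their titles and make up 6 of the 12 libraries of the series. The other 6 came from cells with the empty vector (the EV pool), 3 with T3 and 3 with vehicle, and are given beside them to show T3 without added receptor. All groups had first been kept for 24 hours in medium with charcoal-stripped serum and no phenol red, which removes hormones. Each vector is represented by 1 stably expressing line of cells, and the labels do not say whether it was a mixed pool or a clone. The labels do not state whether replicate libraries were grown apart, and the spread behind every p-value is therefore that of the libraries alone and could be technical.

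T3 enters cells through membrane transporters and binds nuclear receptors that sit on DNA as partners of the retinoid X receptors. The sites they occupy are built from copies of the short half-site AGGTCA. Without hormone the receptor recruits corepressors to many of its targets, and with hormone it exchanges them for coactivators. Other genes fall when the hormone is added. KLF9, a transcription factor gene, and HR, a corepressor gene, are textbook direct targets.

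T3 libraries held 11335783 to 11915181 gene counts and vehicle libraries 7311623 to 8904361 in the TRB pool, so every T3 library was the deeper one. The 2 mitochondrial ribosomal RNAs took 0.0578% to 0.09% of the T3 libraries and 0.707% to 1.8% of the vehicle libraries, and the EV pool differed in the same way (0.0502% to 0.0667% against 0.326% to 2.68%). Depth and T3 therefore cannot be told apart by library, and the part of the ribosomal RNA difference in the results was not tested. All 9 epithelial and basal-like markers were present, among them EPCAM, KRT8 and EGFR. They summed to 10600 to 10870 CPM with vehicle and 8825 to 9342 CPM with T3, and 5 of them fell, 3 by 2-fold or more (the basal keratins KRT5, KRT14 and KRT17), and 1 rose (CDH1). By contrast, the progesterone receptor gene PGR was at 0 in every library. Of 9 fibroblast markers COL1A2, DCN, LUM and THY1 were at 0 in both TRB groups, and the list summed to 18.6 to 20.2 CPM (counts relative to the TMM-scaled library total) with vehicle and 21.3 to 23 CPM with T3. Leukocyte markers summed to 8.33 to 9.86 and 40.9 to 43.6 CPM, most of it CSF1R, while CD3E, LYZ, MS4A1 and HBB were at 0. Endothelial markers summed to 5.74 to 6.44 and 6.98 to 8.83 CPM and adipocyte markers to 1.97 to 3.14 and 3.26 to 4.36 CPM.

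Upstream sequences are shown for 4 genes whose levels moved with T3. The genes and the known element marked in each were picked by hand, and a pattern search only located the element. The choice therefore does not show which elements are common. The sequences run from 250 to 101 bases before the start of the gene in RefSeq (build GRCh38.p14), 5′ to 3′ on the strand of the gene, with the element in capitals. IRF1 lies at chr5:132490874-132491023 on the minus strand, and the capitals mark TTCNNNGAA, the interferon gamma activated sequence, starting 124 bases before the start. TNFSF10 lies at chr3:172523531-172523680 on the minus strand, and the capitals mark TTTCNNTTTC, a core of the interferon-stimulated response element, 187 bases before the start. CD274 lies at chr9:5450292-5450441 on the plus strand and holds 2 overlapping copies of TTTCNNTTTC, the nearer one 202 bases before the start. In lower case it also holds AGGTCA and TTCNNNGAA, 117 and 125 bases before the start. TSPAN1, a gene that fell, lies at chr1:46174837-46174986 on the plus strand and holds the half-site AGGTCA in reverse (TGACCT), 153 bases before the start, and in lower case TTCNNNGAA, 213 bases before it.
IRF1: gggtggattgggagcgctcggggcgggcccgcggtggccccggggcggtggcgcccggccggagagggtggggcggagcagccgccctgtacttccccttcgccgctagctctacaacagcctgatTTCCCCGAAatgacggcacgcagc
TNFSF10: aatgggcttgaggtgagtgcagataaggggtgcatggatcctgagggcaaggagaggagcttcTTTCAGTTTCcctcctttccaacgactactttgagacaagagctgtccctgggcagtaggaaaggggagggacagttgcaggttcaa
CD274: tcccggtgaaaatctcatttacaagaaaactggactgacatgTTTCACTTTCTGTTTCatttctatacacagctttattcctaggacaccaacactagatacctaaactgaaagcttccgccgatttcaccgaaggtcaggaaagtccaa
TSPAN1: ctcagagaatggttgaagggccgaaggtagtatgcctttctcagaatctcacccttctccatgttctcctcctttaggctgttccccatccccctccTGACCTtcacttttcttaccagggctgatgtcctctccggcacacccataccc
On both strands, TTCNNNGAA was in 6.57% of all 35116 RefSeq windows of 250 bases before a start, TTTCNNTTTC in 3.02% and AGGTCA in 12.1%. Among the 9797 tested genes with a window (the first listed was used) these shares were 5.7%, 2.3% and 8.42%. Among 310 genes that rose 2-fold or more they were 6.13%, 4.19% and 11%, and among 219 that fell 2-fold or more 8.22%, 1.37% and 10%. The direct repeat of AGGTCA with 4 bases between the copies, the classical thyroid hormone response element, was in 5 of all windows and in none of the tested genes' windows. These matches describe letters in short windows and show no binding.

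The response to T3 was broad and made up mostly of small changes. By edgeR's quasi-likelihood test with Benjamini-Hochberg adjustment (adjusted p below 0.05) 44.4% of the 14549 genes tested were called, 22.4% as higher and 21.9% as lower. Of the genes that rose, 984 changed by less than 1.2-fold and 1151 by 1.2-fold to 1.5-fold, against 50 by 8-fold or more. Of those that fell, 1141 and 1251 lay in these lower ranges and 9 changed by 8-fold or more. Changes of 2-fold or more were made up of 585 genes higher (4.02% of those tested) and 346 lower (2.38%). With counts thinned to the same depth in every library 71.6% of the rises and 72.1% of the falls were called again. The genes that rose held 24% to 24.1% of the reads in TRB vehicle libraries and 32.4% to 32.6% in TRB T3 libraries, and in EV cells the same genes went from 25% to 25.2% up to 26.4% to 26.6%. The genes that fell went from 34.4% to 34.8% down to 26.2% to 27.4% in TRB cells, and stood at 32.8% to 35.5% and 31% to 31.7% in EV cells. They include the 2 mitochondrial ribosomal RNAs, which alone took 0.707% to 1.8% of TRB vehicle and 0.326% to 2.68% of EV vehicle libraries. In the T3 libraries of both pools these RNAs took 0.09% or less. The shares without them were not computed. Libraries of the TRB groups did not overlap for 51.9% of tested genes.

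**Figure D1:**
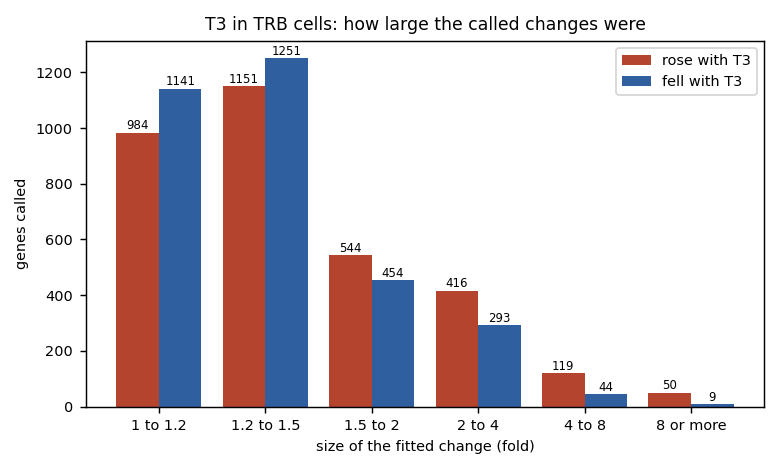
Number of genes called for T3 in TRB cells (y axis) by the size of the fitted fold change (x axis), rises in red and falls in blue. The bars shrink from 1251 genes between 1.2-fold and 1.5-fold lower to 9 genes 8-fold or more lower, and rises outnumber falls from 1.5-fold upward.

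The genes were read through 59 lists of transcription factors, secreted proteins, surface proteins, pathways and cell states. List counts below are members called higher or lower out of members tested, and each is to be read against the shares of all genes, 22.4% and 21.9%, and their median log2 fold change of 0. For every gene given library by library the 3 T3 libraries lay wholly above or wholly below the 3 vehicle libraries. Most of these genes were chosen for the smallest p of a list, so their separation follows largely from the choice. It held for 51.9% of all genes tested. The largest adjusted p among the genes given with a value and said to have risen or fallen is 0.00562 unless another is printed, and for genes only named it is below 0.05. Some genes given by fold change alone were at low levels, such as AGT (1.31 to 0.262 CPM), RARB (2.33 to 0.646 CPM) and DLX1 (2.58 to 0.701 CPM).

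**Figure D2:**
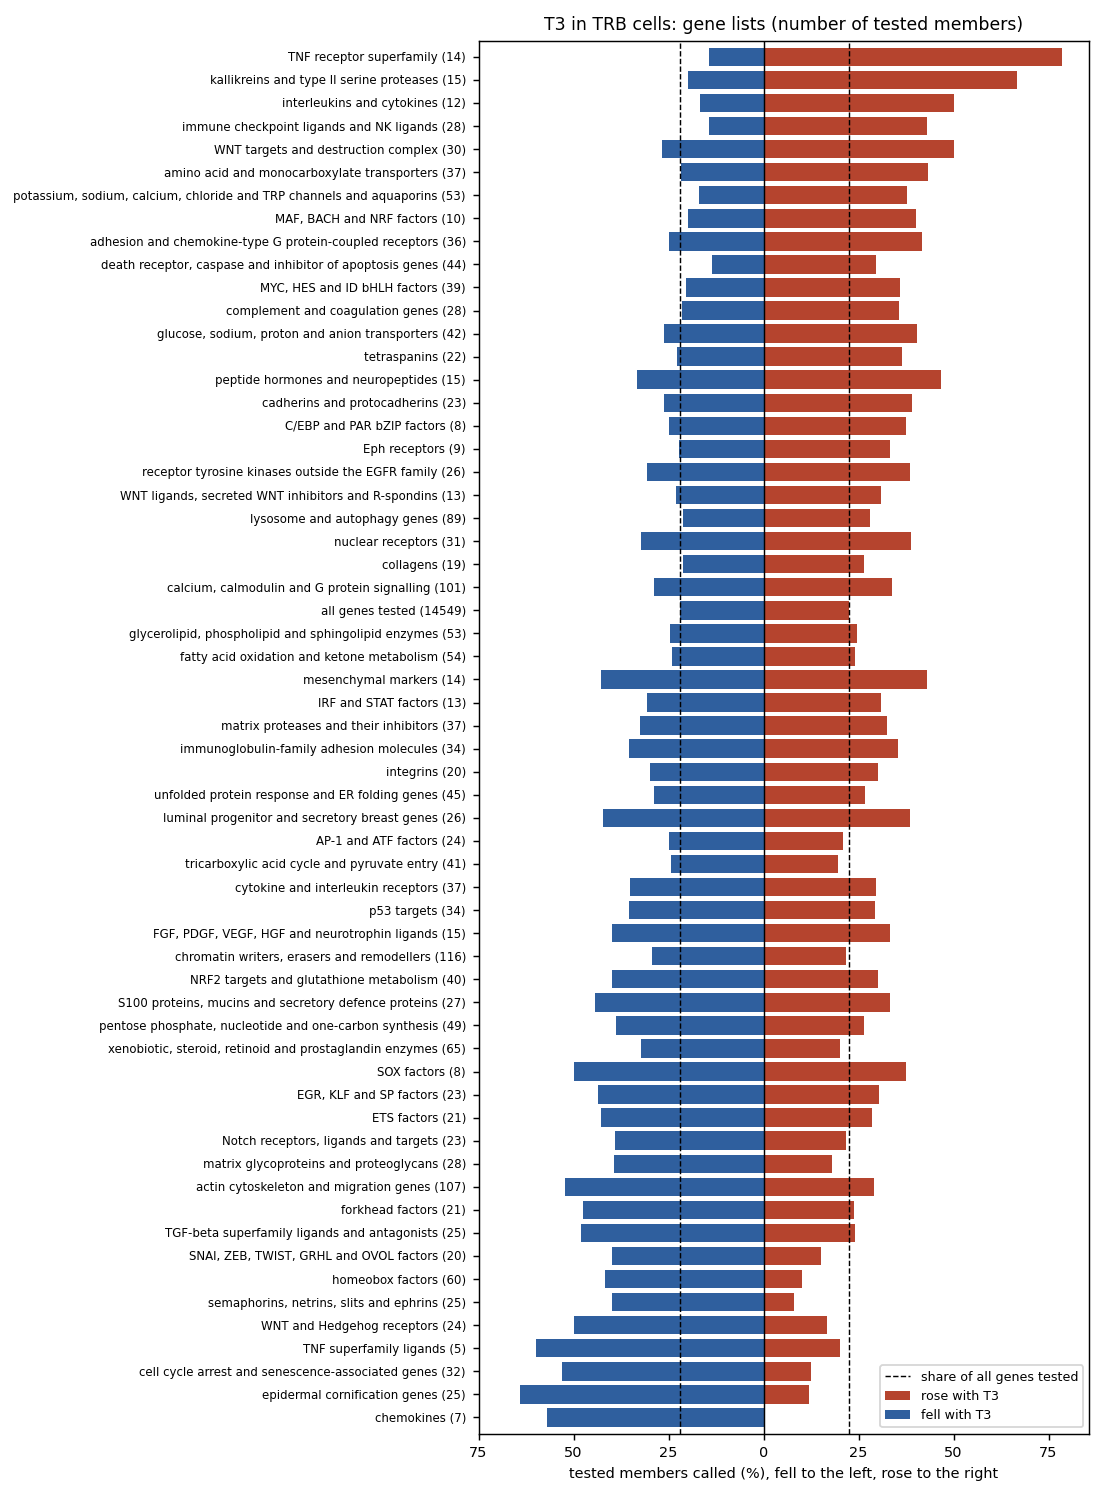
Share of tested members of each list that rose (red, right) or fell (blue, left) with T3 in TRB cells, with the number of tested members in brackets and dashed lines at the shares of all genes tested (22.4% and 21.9%). TNF receptors (78.6% higher) and kallikreins (66.7% higher) are at the top, and chemokines (57.1% lower) and epidermal cornification genes (64% lower) at the bottom.

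Each of the 12 families of transcription factors had a larger share of called members than the 44.4% of all genes. For AP-1 and ATF factors the excess was small (20.8% higher and 25% lower, against 22.4% and 21.9%), so that family did not stand out. THRB (gene span in GENCODE on hg38, chromosome 3, 24117153 to 24495756) was at 144, 136 and 141 CPM with vehicle and 311, 344 and 331 CPM with T3. Its T3 libraries were above all vehicle libraries (log2 fold change 1.23 ± 0.04 (SE), edgeR adjusted p = 1.11e-37), and reads from the vector and the cell's own gene cannot be told apart. In EV cells THRB was at means of 43.4 and 38.5 CPM with vehicle and T3, below every TRB library. KLF9 (chromosome 9, 70384597 to 70414624) was at 2.5, 2.91 and 1.91 CPM with vehicle and 26.7, 27.1 and 27.5 CPM with T3 (log2 fold change 3.45 ± 0.15). HR, the corepressor gene, was at 58.8, 62 and 64.1 CPM with vehicle and 210, 231 and 218 CPM with T3 (log2 fold change 1.83 ± 0.05). In EV cells KLF9 went from a mean of 2.95 to 13 CPM, while HR did not pass the test there. Of 31 nuclear receptors 12 rose and 10 fell: RARA, a retinoic acid receptor, ESRRA and VDR were among the first, and RARB (-1.82) and THRA (-1.39), the alpha receptor for T3, among the second (log2 fold changes).

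The hypoxia factor gene HIF1A was at 178, 189 and 187 CPM with vehicle and 504, 483 and 469 CPM with T3, a clear step up in all 3 T3 libraries (log2 fold change 1.39 ± 0.04). It was counted with the MYC, HES and ID group of basic helix-loop-helix factors, of which 14 of 39 rose and 8 fell; EPAS1, the related HIF2 subunit, rose too. MYCN went from a mean of 2.36 to 27.4 CPM and HES2, a repressor of the Notch-related HES family, from 12.3 to 81.7 CPM. ASCL2 (log2 fold change -1.29) and NPAS2 (-0.54) fell. Of the same 39 genes, 6 rose and 1 fell with T3 in EV cells, where 2.84% of all genes rose and 1.7% fell. HIF1A (0.19), HES2 (0.56) and MYCN (1.07) were among these EV rises (log2 fold changes). The interferon factor IRF1 (chromosome 5, 132481609 to 132490798) was at 34.6, 32 and 34.3 CPM with vehicle and 135, 135 and 131 CPM with T3 (log2 fold change 1.99 ± 0.06); among 13 IRF and STAT genes 4 rose and 4 fell (2 with counts thinned to equal depth), and IRF1 was the one that changed by 2-fold or more. CREB3L1, a membrane-bound factor released by regulated cleavage, was at 15.2, 16.2 and 15 CPM with vehicle and 107, 127 and 117 CPM with T3 (log2 fold change 2.91 ± 0.07). It stood apart in the AP-1 and ATF group, where 5 of 24 rose (3 with counts thinned to equal depth) and 6 fell, JUND (-0.62) and ATF3 (-0.68) among them. DBP, a clock output factor, was at 13, 14 and 11.9 CPM with vehicle and 27.3, 31.1 and 30.5 CPM with T3 (log2 fold change 1.18 ± 0.1), whereas NFIL3 (-0.8), which binds the same sites as a repressor, and CEBPD (-0.92) fell. Among EGR, KLF and SP factors 7 of 23 rose and 10 fell; EGR3, an immediate early gene, went from 0.481 to 8.14 CPM, and KLF2 (-1.07) and KLF5 (-0.58) fell. NFE2L1, which drives proteasome genes, was at 130, 123 and 143 CPM with vehicle and 159, 164 and 151 CPM with T3, a small rise (log2 fold change 0.26 ± 0.05), NFE2L3 rose by 0.38, and NFE2L2, the oxidative stress factor NRF2, fell (log2 fold change -0.21).

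Among forkhead, homeobox and grainyhead-type factors more genes fell than rose. SOX9, a factor of basal and progenitor cells, was at 272, 270 and 268 CPM with vehicle and 143, 155 and 144 CPM with T3 (log2 fold change -0.88 ± 0.04), and SOX11 fell by 1.18 on the log2 scale, while SOX7 went up from 1.2 to 12.3 CPM. SOX genes came to 3 of 8 higher and 4 lower. FOXI1, a forkhead factor of ion-transporting cells, was at 95.2, 94.3 and 98 CPM with vehicle and 49.4, 50.3 and 45.5 CPM with T3 (log2 fold change -0.98 ± 0.05). Of 21 forkhead genes 10 fell and 5 rose, with FOXQ1 at -1.39 and, in the other direction, FOXO6 at 0.95 and FOXO1 at 0.67. Of 60 homeobox genes 25 fell and 6 rose (median log2 fold change -0.23), and DLX1 (-1.85) and HOXB6 (-1.27) were among the lowest. PITX1, a hindlimb homeobox factor, went the other way and was at 145, 138 and 142 CPM with vehicle and 284, 295 and 265 CPM with T3 (log2 fold change 0.99 ± 0.04). GRHL3, a grainyhead factor of epidermal barrier formation, was at 29, 29.5 and 28.7 CPM with vehicle and 6.43, 6.11 and 5.41 CPM with T3 (log2 fold change -2.28 ± 0.11). In its group of epithelial and mesenchymal regulators 8 of 20 fell and 3 rose. TFAP2B fell (-2.84, from 1.53 to 0.203 CPM) and SNAI1 rose (1.36, from 0.941 to 2.39 CPM), both at low levels. TFAP2C rose too (0.73, from 116 to 193 CPM). SPDEF, an ETS factor of secretory epithelium, was at 224, 223 and 213 CPM with vehicle and 336, 356 and 341 CPM with T3 (log2 fold change 0.64 ± 0.04), ETV7 rose by 1.24, and ELF5 (-1.44) and EHF (-0.6) fell. Of 21 ETS genes 6 rose and 9 fell. Chromatin enzymes and remodellers lay nearer to the shares of all genes, 25 of 116 higher and 34 lower. ARID5B, a partner of a histone demethylase, was at 180, 179 and 173 CPM with vehicle and 77.2, 71.2 and 74.1 CPM with T3 (log2 fold change -1.26 ± 0.05), ARID5A (-1.96) and SMARCD3 (-1.42) fell, and HDAC11 (0.78) and TET1 (0.76) rose.

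Secreted signals changed in opposite directions within most families. APLN (chromosome X, 129645259 to 129654937), which encodes the peptide hormone apelin, was at 0.263, 0.336 and 0.41 CPM with vehicle and 48.6, 51.2 and 44.1 CPM with T3 (log2 fold change 7.1 ± 0.19, edgeR adjusted p = 2e-43). The T3 libraries stood far above the vehicle libraries, and in EV cells APLN was at 0.241 and 0.234 CPM with vehicle and T3. STC1, stanniocalcin 1, went from 12.2 to 104 CPM. The vessel-constricting peptide endothelin 2 (EDN2) went down from 36.4 to 2.94 CPM, and AGT, angiotensinogen, fell by 2.25 on the log2 scale; peptide hormones as a list held 7 of 15 higher and 5 lower (3 with counts thinned to equal depth). CSF1, macrophage colony-stimulating factor, was at 24.1, 25.1 and 27.1 CPM with vehicle and 94.1, 81.1 and 82.8 CPM with T3 (log2 fold change 1.76 ± 0.07). IL34, the other ligand of the same receptor, went from 0.344 to 2.31 CPM, and IL12A, a subunit of interleukin 12, from 0.456 to 1.98 CPM. Interleukins and cytokines rose in 6 of 12 cases and fell in 2 (3 rose and 1 fell with counts thinned to equal depth). Chemokines went the other way, with 4 of 7 lower (2 by DESeq2 or without TRB vehicle replicate 1) and 0 higher: CCL28, a mucosal chemokine, was at 66.4, 70.6 and 67.8 CPM with vehicle and 40.8, 41.2 and 41.4 CPM with T3 (log2 fold change -0.73 ± 0.06), and CCL22 fell too (-1.03). The calls for CXCL16 and CXCL17 (-0.23 and -0.55) were lost under 3 and 4 of 19 other settings, DESeq2 among them (edgeR or DESeq2 adjusted p up to 0.123 and 0.172).

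TNFSF10 (chromosome 3, 172505508 to 172523507), the gene of the death ligand TRAIL, was at 50.9, 51 and 53.4 CPM with vehicle and 327, 332 and 327 CPM with T3 (log2 fold change 2.67 ± 0.05). The 3 T3 libraries sat close together and far above the others. It was the one TNF superfamily ligand of 5 tested that rose, and 3 fell, TNFSF12 among them (-0.84). VEGFA (chromosome 6, 43770184 to 43786487), the main vessel growth factor, was at 103, 102 and 115 CPM with vehicle and 360, 402 and 399 CPM with T3 (log2 fold change 1.86 ± 0.05). Platelet-derived growth factor genes PDGFA (-1.49) and PDGFC (-0.88) fell, and growth factors of this kind split into 5 higher and 6 lower of 15. ANGPT1, a ligand of the TEK receptor, had 1 count in the vehicle libraries and 47 in the T3 libraries, a ratio of 32.2 (95% counting interval 5.5 to 1300, exact, for counting error only). BMP2, a bone morphogenetic protein, was at 11.7, 11 and 8.74 CPM with vehicle and 2.06, 1.62 and 1.83 CPM with T3 (log2 fold change -2.51 ± 0.18). INHBA, the activin A subunit, fell (-1.7), and FST, an activin antagonist, rose from 0.171 to 2.33 CPM, as did TGFB3 (1.33). In all, 12 of 25 TGF-beta family ligands and antagonists fell and 6 rose. WNT4 was at 7.1, 5.26 and 4.78 CPM with vehicle and 30.6, 35.1 and 33 CPM with T3 (log2 fold change 2.52 ± 0.12), WNT11 went from 0.37 to 2.33 CPM, and WNT7B (-0.58) and WNT9A (-0.44) fell. WNT ligands, secreted inhibitors and R-spondins came to 4 of 13 higher and 3 lower. Guidance ligands fell in 10 of 25 cases and rose in 2. The 2 that rose were NTN4, netrin 4, at 163, 167 and 172 CPM with vehicle and 313, 301 and 302 CPM with T3 (log2 fold change 0.87 ± 0.04), and SEMA4B (0.52), and SEMA5B (-1.47) and EFNA1 (-0.79) were among those that fell.

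Kallikreins and related serine proteases rose in most tested cases. KLK8 (chromosome 19, 50996007 to 51002711), a kallikrein protease of skin and brain, was at 8.15, 8.85 and 7.65 CPM with vehicle and 100, 110 and 100 CPM with T3 (log2 fold change 3.65 ± 0.08). PRSS27 went from 3.58 to 24.1 CPM and KLK7, which cleaves corneodesmosomes in skin, from 5.75 to 34 CPM. Of 15 kallikreins and type II or membrane serine proteases 10 rose and 3 fell (median log2 fold change 0.86), 6 of them 2-fold or more higher. KLK5, KLK6, KLK10, PRSS8, PRSS22, TMPRSS2 and TMPRSS4 also rose, and TMPRSS11E (-1.5) and PRSS23 (-0.51) were among those that fell. In EV cells 7 of the same 15 rose and 0 fell, where 2.84% of all genes rose and 1.7% fell. On leaving out 1 EV library these were 6 to 8 rises and 0 or 1 fall. FURIN, the convertase that cuts many proproteins, was at 27.9, 31.7 and 30.3 CPM with vehicle and 167, 175 and 163 CPM with T3 (log2 fold change 2.48 ± 0.06). Matrix proteases and their inhibitors were even, 12 of 37 higher and 12 lower: TIMP3 rose (1.62), and ADAMTS1 (-2.74) and MMP7, matrilysin (-1.7), fell.

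Matrix proteins themselves moved both ways. TNC, tenascin C, was at 10.3, 10.9 and 11.7 CPM with vehicle and 44.5, 37.7 and 34.7 CPM with T3 (log2 fold change 1.83 ± 0.1), and SPARC, a collagen-binding glycoprotein, went from 0.292 to 1.78 CPM. THBS1, thrombospondin 1, fell (-1.58), as did EFEMP1, fibulin 3 (-1.37); 11 of 28 matrix glycoproteins fell (7 with counts thinned to equal depth) and 5 rose. COL18A1, the basement membrane collagen that yields endostatin, was at 93.2, 97.9 and 103 CPM with vehicle and 203, 189 and 197 CPM with T3 (log2 fold change 1 ± 0.05), and COL13A1 (-1.61) and COL5A2 (-0.89) fell. Collagens had 5 of 19 members higher (3 by DESeq2 or without TRB vehicle replicate 2) and 4 lower. C1QTNF1, an adipokine-like secreted protein related to complement C1q, was at 0.92, 1.12 and 1.09 CPM with vehicle and 34.5, 36.1 and 36.5 CPM with T3 (log2 fold change 5.07 ± 0.17). In EV cells it also rose, from a mean of 2.33 to 16.7 CPM. Complement and coagulation genes rose in 10 of 28 cases and fell in 6; the fibrinogen chain FGA rose (1.91), and the complement inhibitors SERPING1 (-1.18) and CD55 (-1.1) fell.

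Among small defence and mucosal proteins S100A10, the partner of annexin A2, was at 328, 313 and 314 CPM with vehicle and 126, 123 and 117 CPM with T3 (log2 fold change -1.38 ± 0.04). Of 27 S100 proteins, mucins and defence proteins 12 fell, 8 of them 2-fold or more, and 9 rose, none of them 2-fold. PI3, the elastase inhibitor elafin, went down from 74.8 to 16.5 CPM and DEFB1, a beta defensin, from 7.79 to 1.9 CPM, and MUC5B, LCN2 and AGR2 fell too. S100A8 (0.79) and ANXA1, annexin A1 (0.81), rose. Of the same 27 genes, 9 fell and 0 rose with T3 in EV cells, where 1.7% of all genes fell and 2.84% rose. PI3 (-0.34), DEFB1 (-0.64) and S100A10 (-0.16) were among these EV falls (log2 fold changes). Whether that EV count rests on single libraries was not tested.

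Surface receptors of the TNF family rose in most tested cases, with 11 of 14 higher and 2 lower (median log2 fold change 0.58). TNFRSF11A, which encodes RANK, was at 22.3, 26.1 and 28.6 CPM with vehicle and 77.9, 72.6 and 75.5 CPM with T3 (log2 fold change 1.55 ± 0.07). The TRAIL decoy receptor gene TNFRSF10D went from 3.23 to 15.2 CPM, and the signalling TRAIL receptors TNFRSF10A and TNFRSF10B, EDAR, TNFRSF25, RELT, LTBR, TNFRSF14, TNFRSF12A and TNFRSF1A also rose. TNFRSF21, death receptor 6, fell (-0.39); the call for FAS (log2 fold change -0.65) was lost by DESeq2 and without any 1 of 3 TRB libraries (adjusted p up to 0.148). Ligands and receptors of immune checkpoints and natural killer cells rose in 12 of 28 cases and fell in 4. BTN3A2, a butyrophilin seen by gamma delta T cells, was at 82, 88.1 and 88.5 CPM with vehicle and 149, 142 and 139 CPM with T3 (log2 fold change 0.73 ± 0.05); BTN3A1 and BTN3A3, near copies of it between which reads may be split, rose as well. LGALS9, galectin 9, went from 12.8 to 31 CPM. CD274, the gene of PD-L1, rose from 0.302 to 1.49 CPM, a low level in both groups. NT5E, the ectonucleotidase CD73, went down from 160 to 41.4 CPM, and ULBP1, a stress ligand for killer cells, fell by 0.81 on the log2 scale.

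Receptors for growth factors and cytokines split. IL6R (chromosome 1, 154405193 to 154469450), the interleukin 6 receptor, was at 0.657, 0.784 and 0.41 CPM with vehicle and 24.8, 28 and 29.2 CPM with T3 (log2 fold change 5.41 ± 0.2). CSF1R, the receptor of CSF1 and IL34, was at 7.76, 9.07 and 7.79 CPM with vehicle and 39, 40.2 and 37.5 CPM with T3 (log2 fold change 2.23 ± 0.1), so both ligands and the receptor rose in the same libraries. RET, a receptor tyrosine kinase of the GDNF family ligands, went from 0.989 to 14.4 CPM, and KDR, a VEGF receptor, down from 2.36 to 0.347 CPM; ROS1 fell (-2.08). ERBB2 was at 93.3, 94.9 and 101 CPM with vehicle and 127, 132 and 142 CPM with T3 (log2 fold change 0.47 ± 0.05), a rise of less than 1.5-fold. Receptor tyrosine kinases outside the EGFR family came to 10 of 26 higher and 8 lower, and cytokine receptors to 11 of 37 and 13. EPHA1, an ephrin receptor, was at 31.5, 28.1 and 31.7 CPM with vehicle and 53.8, 56.5 and 52.9 CPM with T3 (log2 fold change 0.84 ± 0.07), and EPHA4 (-0.84) and EPHB3 (-0.54) fell. WNT and Hedgehog receptors fell in 12 of 24 cases and rose in 4 (2 with counts thinned to equal depth). BOC, a Hedgehog coreceptor, was at 22, 25.8 and 23.9 CPM with vehicle and 8.05, 8.8 and 8.29 CPM with T3 (log2 fold change -1.51 ± 0.11); FZD4 rose (1.09), and FZD8 had 37 counts in the vehicle libraries and 2 in the T3 libraries, 27-fold lower (95% counting interval 6.97 to 231).

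Of 23 Notch genes 9 fell and 5 rose (3 with counts thinned to equal depth). DTX4, a ubiquitin ligase of the deltex family, was at 270, 254 and 260 CPM with vehicle and 561, 561 and 545 CPM with T3 (log2 fold change 1.09 ± 0.04), and LFNG, the glycosyltransferase that tunes Notch receptors, fell (-1.79). Of 36 G protein-coupled receptors 15 rose and 9 fell, with LPAR3, a lysophosphatidic acid receptor, at -1.23 and ADGRE2 at -1.23. ITGA3, an integrin subunit that binds laminins, was at 75.3, 68.8 and 74.1 CPM with vehicle and 257, 254 and 250 CPM with T3 (log2 fold change 1.81 ± 0.05), and ITGB4, the hemidesmosome subunit, fell (-0.88); integrins came to 6 higher and 6 lower of 20. TSPAN1, a tetraspanin, was at 41.5, 39.8 and 30.9 CPM with vehicle and 17.3, 16.8 and 17.3 CPM with T3 (log2 fold change -1.13 ± 0.09), although 8 of 22 tetraspanins rose and 5 fell. CELSR2, a large nonclassical cadherin, was at 236, 217 and 235 CPM with vehicle and 357, 345 and 362 CPM with T3 (log2 fold change 0.63 ± 0.04), and CDH1, E-cadherin, rose by 0.34. Cadherins and protocadherins came to 9 of 23 higher and 6 lower. CDH5, the cadherin of endothelium, was at 0.263, 0.336 and 0.683 CPM with vehicle and 3.34, 3.95 and 3.75 CPM with T3 (log2 fold change 3.09 ± 0.37), while the endothelial gene CLDN5 was at 0. CEACAM6 was at 81.2, 79.1 and 79 CPM with vehicle and 26.6, 28.4 and 25.3 CPM with T3 (log2 fold change -1.58 ± 0.07) and MCAM fell (-1.67), whereas the adhesion genes JAM2 (2.81) and L1CAM (1.92) rose; immunoglobulin-family adhesion molecules were even at 12 and 12 of 34.

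**Figure D3:**
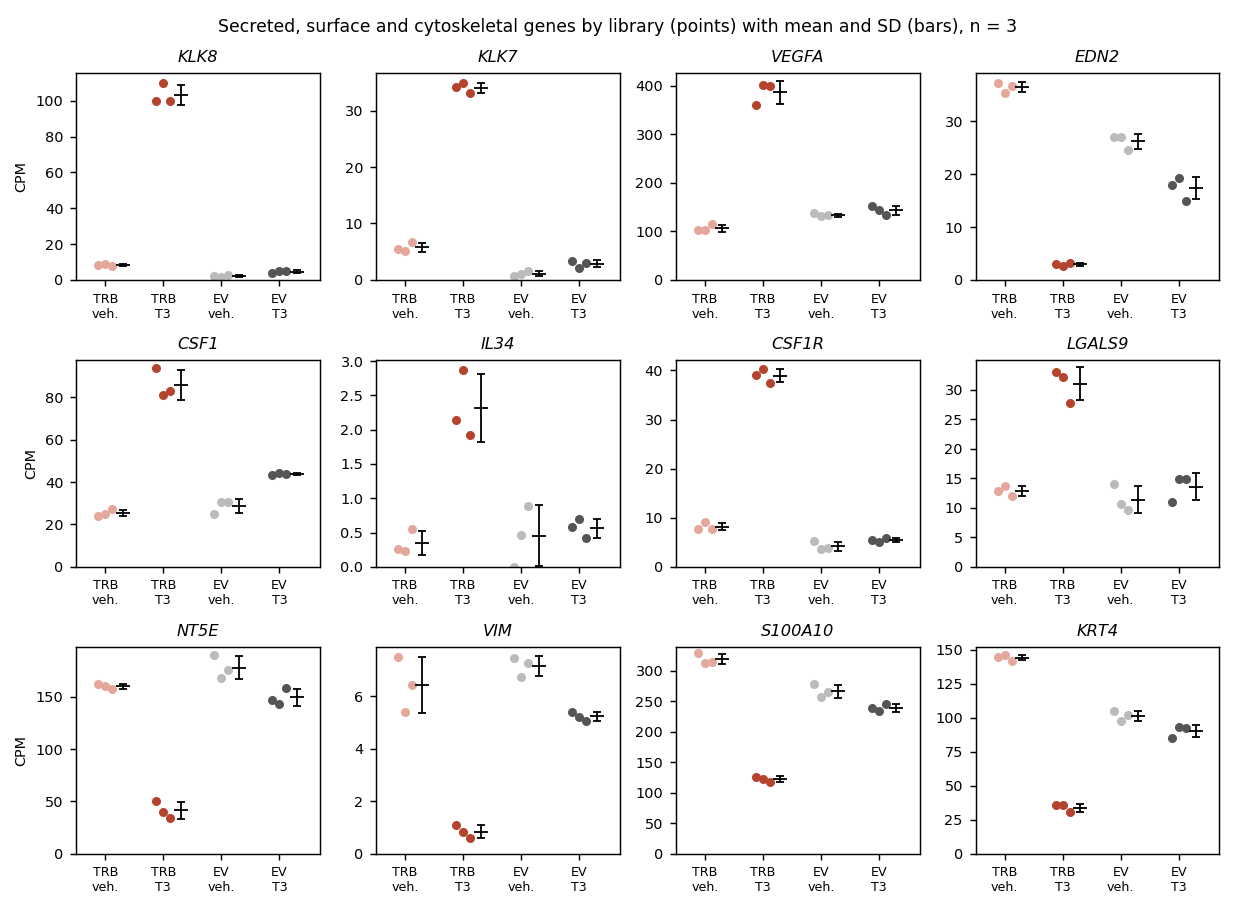
Levels of 12 secreted, surface and cytoskeletal genes in CPM (y axes from 0) in each library (points) of the 4 groups (x axes), with mean and SD (black bars, n = 3). In TRB cells KLK8, KLK7, VEGFA, CSF1, IL34, CSF1R and LGALS9 are higher in every T3 library than in any vehicle library, and EDN2, NT5E, VIM, S100A10 and KRT4 lower. For most of these genes such separation was a condition of the choice.

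Transporters and channels rose more often than they fell. SLC9A3R1, the scaffold NHERF1 that holds transporters at the apical membrane, was at 321, 312 and 304 CPM with vehicle and 830, 876 and 816 CPM with T3 (log2 fold change 1.43 ± 0.04). Among glucose, sodium, proton and anion transporters 17 of 42 rose and 11 fell (6 with counts thinned to equal depth). SLC2A4, the insulin-responsive glucose transporter GLUT4, rose from 0.721 to 3.47 CPM. Its EV means were 2.32 CPM with vehicle and 3.05 CPM with T3, so the TRB rise began below the EV level. SLC34A2, a phosphate transporter, rose from 42.2 to 128 CPM, and SLC4A4, a bicarbonate transporter, fell from 7.87 to 1.08 CPM. SLC6A14, an amino acid transporter, was at 70.1, 74.5 and 67.9 CPM with vehicle and 18.7, 19.4 and 13.8 CPM with T3 (log2 fold change -2.04 ± 0.08). In its list 16 of 37 rose and 8 fell, and the monocarboxylate carriers SLC16A7 (2.41) and SLC16A6 (2.1) rose. KCNS1, a modulatory potassium channel subunit, was at 7.1, 10.1 and 9.56 CPM with vehicle and 67.9, 70.1 and 69.8 CPM with T3 (log2 fold change 2.95 ± 0.09). Channels rose in 20 of 53 cases and fell in 9; the potassium channel KCNJ12 had 1 count with vehicle and 126 with T3, a ratio of 86.3 (95% counting interval 15.2 to 3430).

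The fatty acid, tricarboxylic acid and glycerolipid lists lay close to the shares of all genes, while single enzymes in them changed by more than 2-fold. UCP2, a mitochondrial carrier, was at 200, 199 and 185 CPM with vehicle and 582, 590 and 552 CPM with T3 (log2 fold change 1.56 ± 0.04), and ACSL5, which activates fatty acids, went from 4.19 to 21.8 CPM. Fatty acid oxidation and ketone genes had 13 of 54 higher and 13 lower, with OXCT1, which uses ketones, and EHHADH falling (log2 fold changes -0.61 and -0.59). PPARGC1A, a coactivator of mitochondrial genes, had 3 counts with vehicle and 198 with T3, a ratio of 45.2 (95% counting interval 15.2 to 221). PC, pyruvate carboxylase, was at 92.5, 85.2 and 86.5 CPM with vehicle and 185, 180 and 196 CPM with T3 (log2 fold change 1.09 ± 0.05), ME1, malic enzyme, rose by 0.77, and IDH1 (-0.49) and FBP1 (-0.77) fell; the tricarboxylic acid list came to 8 and 10 of 41. MTHFD2, the mitochondrial one-carbon enzyme, was at 155, 166 and 165 CPM with vehicle and 411, 399 and 397 CPM with T3 (log2 fold change 1.31 ± 0.04). ODC1, which makes polyamines (-0.92), and SHMT1 (-0.58) fell. The nucleotide and one-carbon list held 19 falls and 13 rises among 49 tested. MGLL (chromosome 3, 127689062 to 128052190), the lipase of monoacylglycerols, was at 41.4, 38.1 and 43.9 CPM with vehicle and 338, 337 and 329 CPM with T3 (log2 fold change 3.03 ± 0.05), and the membrane lipid enzymes CHPT1 (-0.72) and SGMS1 (-0.6) fell. Of 53 enzymes of glycerolipids and sphingolipids 13 rose and 13 fell.

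SULT1A1, a phenol sulfotransferase, was at 22.9, 25.2 and 25.4 CPM with vehicle and 68.1, 68.9 and 72.4 CPM with T3 (log2 fold change 1.51 ± 0.07), and its near copy SULT1A2 went from 2.3 to 15.3 CPM; reads may be split between them. Enzymes of xenobiotics, steroids, retinoids and prostaglandins fell in 21 of 65 cases and rose in 13, with ALDH1A1, a retinal dehydrogenase, at -1.1 and CYP4F3 at -1.77. ABCC4, a multidrug exporter, was at 17.4, 19.5 and 17.2 CPM with vehicle and 91, 89.5 and 90.3 CPM with T3 (log2 fold change 2.32 ± 0.07). Of 40 NRF2 target and glutathione genes 16 fell and 12 rose. The members that rose included the exporters ABCC1 and ABCC3 and the glutamyl transferases GGT1 and GGT5 (2.73), and the ferritin heavy chain FTH1 (-0.69) and AKR1B10 (-0.92) fell. HERPUD1, a gene of protein disposal at the endoplasmic reticulum, was at 72.8, 73.2 and 67.1 CPM with vehicle and 120, 121 and 127 CPM with T3 (log2 fold change 0.79 ± 0.05). The unfolded protein list was near the shares of all genes, 12 of 45 higher and 13 lower, with TRIB3 at -0.55. TP53INP2, which acts in autophagosome formation, was at 79.3, 73.6 and 82.4 CPM with vehicle and 462, 499 and 461 CPM with T3 (log2 fold change 2.6 ± 0.04). Of 89 lysosome and autophagy genes 25 rose, among them CLN3 (1.21), and 19 fell, among them SESN3 (-1.35) and the autophagy kinase gene ULK2 (-0.61).

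SYT12 and TNS1 had the smallest p-values in their signalling lists. SYT12, a synaptotagmin of vesicle traffic, was at 138, 134 and 138 CPM with vehicle and 836, 878 and 892 CPM with T3 (log2 fold change 2.67 ± 0.04, edgeR adjusted p = 6.81e-58). CAMK2N1, an inhibitor of calmodulin kinase II, went from 39.8 to 232 CPM, and RGS2, which shortens G protein signals, down from 17.8 to 2.88 CPM; calcium and G protein genes came to 34 of 101 higher and 29 lower. TNS1, tensin 1, which links integrins to actin, was at 55.9, 59.7 and 57.5 CPM with vehicle and 354, 362 and 346 CPM with T3 (log2 fold change 2.61 ± 0.05), and TNS4 went from 19.1 to 157 CPM. Both tensins rose while most called members of their list fell. Of 107 actin cytoskeleton and migration genes 56 fell (52.3%) and 31 rose, mostly by small steps, 2 of the falls reaching 2-fold. These were MYL9, a myosin light chain (-1.29), and RHOB (-1.04), and ACTB, ACTG1, FLNA, CFL1, RHOA and RAC1 were among the smaller falls. CCND1, cyclin D1, was at 275, 266 and 271 CPM with vehicle and 692, 669 and 643 CPM with T3 (log2 fold change 1.3 ± 0.04). The EV means of CCND1 were 399 CPM with vehicle and 461 CPM with T3, so its TRB vehicle level was the lowest of the 4 groups. This was not particular to CCND1. HR (61.6 against 87.5 CPM), IRF1 (33.6 against 55.8 CPM) and MGLL (41.1 against 61.1 CPM) also had lower vehicle means in TRB than in EV cells. The reverse held for CREB3L1 (15.5 against 10.3 CPM) and KLK8 (8.22 against 2.23 CPM). In the list of WNT targets and the destruction complex 15 of 30 rose and 8 fell, and its feedback genes split, NKD1 going from 36.9 to 122 CPM and AXIN2 down from 27.3 to 9.67 CPM.

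Genes of growth arrest fell more often than they rose. BTG1, an antiproliferative gene, was at 62.7, 66.4 and 58.9 CPM with vehicle and 28.1, 29.6 and 27.7 CPM with T3 (log2 fold change -1.14 ± 0.07), and BTG2 (-1.26) and the cyclin kinase inhibitor CDKN1A (-1.21) fell with it. IGFBP3, a binding protein of insulin-like growth factors, was at 192, 203 and 200 CPM with vehicle and 47.6, 52.2 and 50.8 CPM with T3 (log2 fold change -1.98 ± 0.05). Of 32 genes of arrest and senescence 17 fell and 4 rose (median log2 fold change -0.32), and CDKN2A, CDKN2B and CDKN2C were among those that fell. STC1, PAPPA, PLAUR and IGFBP7 were the 4 that rose, the last with no count in the vehicle libraries and 51 in the T3 libraries. Targets of p53, a list that shares CDKN1A, BTG1 and BTG2, came to 10 of 34 higher and 12 lower, with GADD45G (2.1) and PLK3 (1.37) rising. GSDMC, a gasdermin of membrane pores, was at 29.3, 32.6 and 28.6 CPM with vehicle and 71.5, 81.8 and 83.1 CPM with T3 (log2 fold change 1.38 ± 0.07). Death receptor, caspase and inhibitor genes rose in 13 of 44 cases, PYCARD (1.03) among them, and fell in 6 (3 with counts thinned to equal depth or without TRB vehicle replicate 2).

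Genes of epidermal differentiation fell in most tested cases. KRT4, a keratin of stratified mucosa, was at 145, 146 and 142 CPM with vehicle and 35.7, 35.7 and 30.6 CPM with T3 (log2 fold change -2.09 ± 0.06). CASP14, a protease of cornifying skin, went down from 1252 to 237 CPM, and of 25 cornification genes 16 fell, 10 of them 2-fold or more (median log2 fold change -0.51). KRT6A, KRT6B, KRT10, KRT16, KRT80, IVL and TGM1 were among them; keratins have near copies and pseudogenes, between which reads may be split. The 3 that rose were the kallikreins KLK5 and KLK7 and CALML5, a calcium-binding protein (0.96). CALML5 also rose in EV cells, from a mean of 53.2 to 97.2 CPM (log2 fold change 0.86). Its difference between pools (0.11 ± 0.09, SE) did not pass the test. KRT17, a basal keratin, was at 390, 374 and 353 CPM with vehicle and 130, 130 and 108 CPM with T3 (log2 fold change -1.61 ± 0.05). VIM, vimentin, was at 7.49, 5.38 and 6.42 CPM with vehicle and 1.11, 0.808 and 0.611 CPM with T3 (log2 fold change -2.89 ± 0.25), low in both groups. Mesenchymal markers as a list, VIM included, split into 6 of 14 higher (3 with counts thinned to equal depth) and 6 lower. CD14, a coreceptor for lipopolysaccharide found in luminal progenitors, was at 21.7, 19.5 and 17.5 CPM with vehicle and 184, 194 and 181 CPM with T3 (log2 fold change 3.25 ± 0.06), and LBP, which loads it, went from 4.55 to 19.2 CPM. Luminal progenitor and secretory genes as a list moved both ways, 10 of 26 higher and 11 lower, ELF5 and GABRP (-1.55) falling.

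Ranked by CPM, which is a share of the library and grows with gene length, the changes that moved the most reads held some of the genes above and others. In CPM the largest gains included those of MALAT1 (7693 to 11667 CPM), NEAT1 (594 to 2443 CPM), CD24 (1597 to 2734 CPM), SYT12, C2orf54 (89.8 to 643 CPM), SLC9A3R1 and DDR1, a collagen receptor (691 to 1214 CPM). MALAT1 and NEAT1 are long RNAs held in the nucleus. The T3 libraries of the TRB pool held NEAT1 at 1940, 1947 and 3441 CPM, so 1 library raised its mean. EV means went from 7898 to 9198 CPM for MALAT1 and from 668 to 1124 CPM for NEAT1, and neither passed the test there. The difference between pools did not pass the test for MALAT1 (0.38 ± 0.19, SE, on the log2 scale) and did for NEAT1 (1.29 ± 0.35). The largest losses were in the mitochondrial ribosomal RNAs MT-RNR2 (8366 to 623 CPM) and MT-RNR1, which was at 2637, 1796 and 4772 CPM with vehicle and 151, 125 and 103 CPM with T3. Both fell in EV cells as well. They were followed by ACTB (5870 to 4177 CPM), CASP14, FLNA (2987 to 2182 CPM), KRT5, EEF1A1 (3470 to 2804 CPM) and TUBB (3821 to 3164 CPM).

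**Figure D4:**
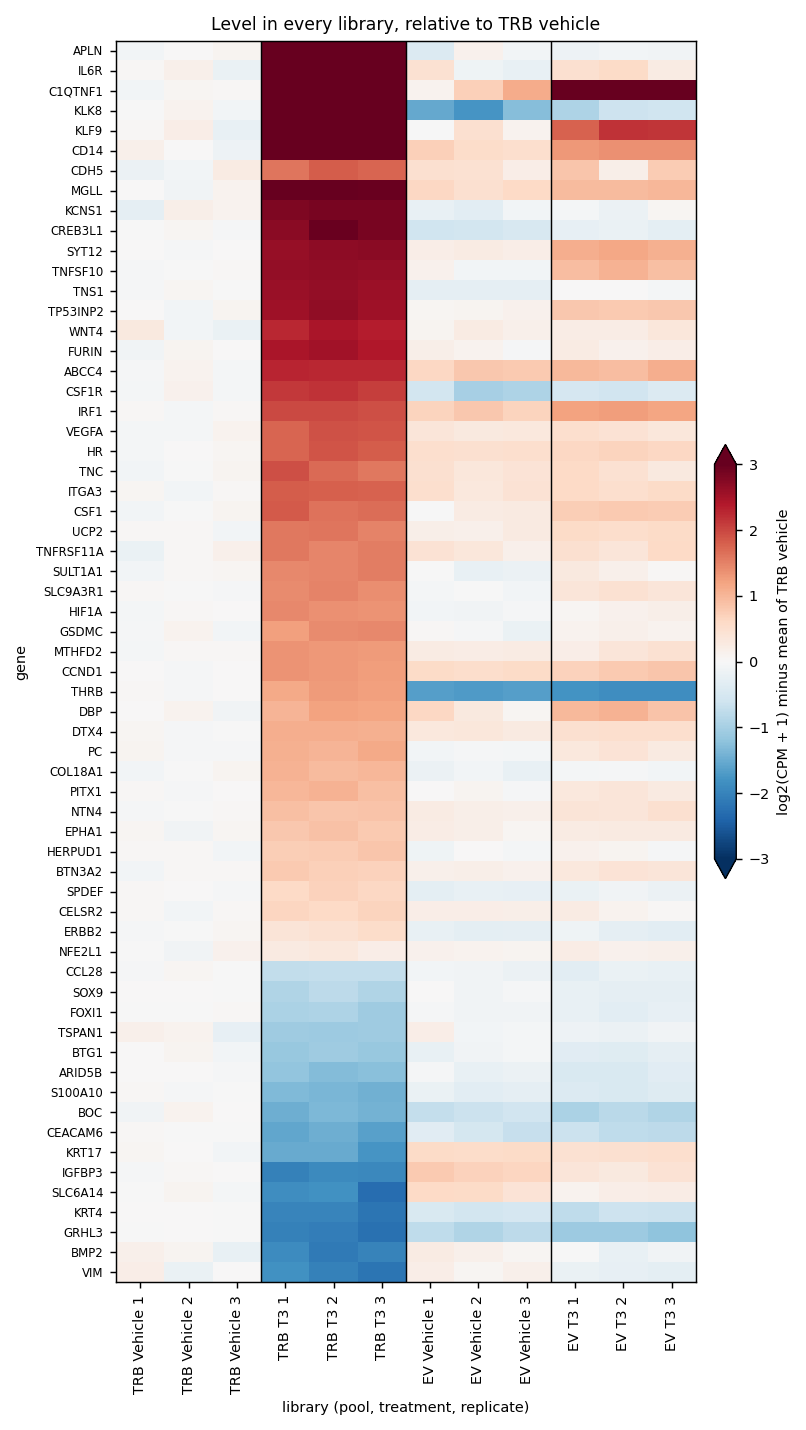
Level of each gene given library by library (rows, ordered by its log2 fold change in TRB cells) in the 12 libraries (columns), as log2(CPM + 1) minus the mean of the 3 TRB vehicle libraries, with colours cut at 3 above and below. The 3 TRB T3 libraries share 1 colour in each row, C1QTNF1 and KLF9 are also raised in the EV T3 libraries, and THRB is lower in all EV libraries. MT-RNR1 is not drawn.

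In EV cells 4.54% of genes were called for T3, and 23.9% were called by the test of the difference between the T3 effects of the 2 pools. The EV share rested on single libraries: it was 1.84% when EV vehicle replicate 3 was left out, 2.65% when replicate 1 of that group was, and 2.33% when EV T3 replicate 2 was. Of the 63 genes given library by library 30 were called in EV cells in the same direction (25 to 31 on leaving out 1 EV library) and 33 were not called there. The difference itself passed the test for 62 of them; nearly all had been chosen for small p-values in TRB cells, whose libraries this test shares, so that count is no independent support. Some genes reached part of their TRB change without added receptor. KLF9 rose by 3.45 in TRB and 2.13 in EV cells on the log2 scale (difference 1.32 ± 0.29, SE), C1QTNF1 by 5.07 and 2.7 (difference 2.37 ± 0.35), and DBP by 1.18 and 0.69 (difference 0.49 ± 0.15). For others the EV value was near 0. FURIN had 2.48 in TRB and 0.13 in EV cells (difference 2.36 ± 0.1), VEGFA 1.86 and 0.1 (difference 1.76 ± 0.07), and KRT17 -1.61 and -0.08 (difference -1.53 ± 0.06).

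**Figure D5:**
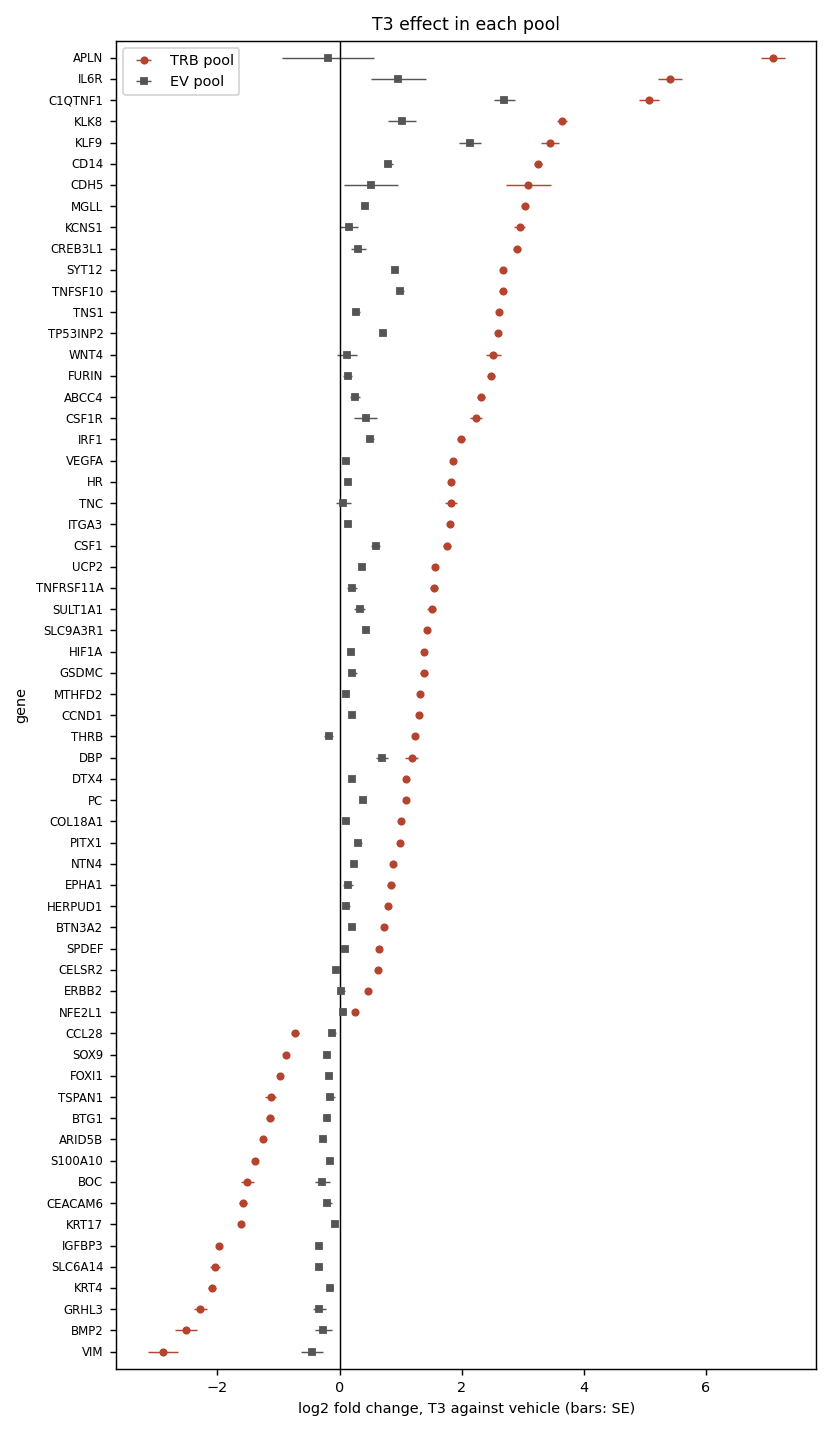
T3 effect as log2 fold change (x axis, bars show SE) for each gene given library by library (y axis), in the TRB pool (red circles) and the EV pool (grey squares), without MT-RNR1. Red points run from 7.1 for APLN to -2.89 for VIM, and grey points lie between -0.45 and 2.7.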

How the data were processed

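RNA of 12 MDA-MB-468 libraries (TRB or EV pool, T3 or vehicle, 3 each) was sequenced from NEBNext Ultra II libraries. The authors deposited whole-number read counts per gene name for each library. The submitters' processing notes name CASAVA 1.7, STAR 2.7, HTSeq 0.10, DESeq2 and the build hg38, but no source used here gives the strand setting, so antisense and overlapping genes are uncertain. Groups were taken from the sample titles. Lines of the counter that name no gene (31.87% to 39.24% of each file) were left out. Of 56832 gene names, 14549 passed edgeR's filterByExpr (minimum count 10, minimum total 15).

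Counts were scaled by TMM and fitted with edgeR 4.0.16 (R 4.3.3, limma 3.58.1) as 4 group means with robust quasi-likelihood dispersions and 8 residual degrees of freedom. A gene was called at a Benjamini-Hochberg adjusted p below 0.05 over all genes tested, and the SE of a log2 fold change was taken from its F value. The script was tested on simulated data. Fold changes of genes with 3 counts or fewer in a group were replaced by count ratios with exact 95% intervals. Named genes were THRB, KLF9 and HR, up to 2 called members with the largest rise and 2 with the largest fall in each list (groups not overlapping, at least 1 CPM in the higher group), and the 8 largest gains and losses in CPM. The member with the smallest p in each list was given in every library. Members and lists were chosen with earlier results of these data known, and 46 further genes are named as list members after their values were seen. Some genes that meet the rule are not reported here. Coordinates are GENCODE release 29 gene spans, matched by symbol. Alternatives were DESeq2 1.42.0, RLE scaling, other filters on low counts, the pool alone, a replicate block, equal depth and leaving out each library.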

Additional observations from a re-analysis of the deposited data

Results flagged for a closer look

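For 62 of the 63 genes given library by library the T3 effect differed between the TRB and the EV pool (edgeR's quasi-likelihood test of the difference, Benjamini-Hochberg adjusted over all genes tested). Values are the log2 fold change in TRB cells minus that in EV cells, with 3 libraries in each group. The genes had been chosen mostly by their effect in TRB cells, which enters this difference, so their number says nothing about how common such differences are, and 23.9% of all genes were called. The largest adjusted p was 0.0219, for NFE2L1.

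Among transcription factors and chromatin genes the differences were 1.41 for THRB, 1.32 for KLF9, 1.7 for HR, 2.6 for CREB3L1, 1.49 for IRF1, 1.2 for HIF1A, 0.68 for PITX1, 0.55 for SPDEF, 0.49 for DBP, 0.2 for NFE2L1, -0.67 for SOX9, -0.82 for FOXI1, -0.99 for ARID5B and -1.94 for GRHL3.

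For secreted proteins they were 7.3 for APLN, 2.62 for KLK8, 2.41 for WNT4, 2.37 for C1QTNF1, 2.36 for FURIN, 1.77 for TNC, 1.76 for VEGFA, 1.68 for TNFSF10, 1.17 for CSF1, 0.9 for COL18A1, 0.64 for NTN4, -0.61 for CCL28, -1.23 for S100A10, -1.64 for IGFBP3 and -2.24 for BMP2.

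For surface receptors and adhesion proteins they were 4.45 for IL6R, 2.57 for CDH5, 2.45 for CD14, 1.8 for CSF1R, 1.66 for ITGA3, 1.35 for TNFRSF11A, 0.7 for EPHA1, 0.69 for CELSR2, 0.52 for BTN3A2, 0.44 for ERBB2, -0.98 for TSPAN1, -1.23 for BOC and -1.37 for CEACAM6.

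For transporters, channels and enzymes they were 2.79 for KCNS1, 2.07 for ABCC4, 0.99 for SLC9A3R1, -1.7 for SLC6A14, 2.62 for MGLL, 1.2 for UCP2, 1.2 for MTHFD2, 1.18 for SULT1A1, 0.7 for PC and 0.68 for HERPUD1.

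For signalling, cell state and death genes they were 2.34 for TNS1, 1.89 for TP53INP2, 1.77 for SYT12, 1.17 for GSDMC, 1.09 for CCND1, 0.9 for DTX4, -0.93 for BTG1, -1.53 for KRT17, -1.93 for KRT4 and -2.45 for VIM. The log2 fold changes of APLN and THRB in EV cells, -0.19 and -0.18, passed no test there, against 7.1 and 1.23 in TRB cells.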

How the results depend on the processing

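Under 19 other settings, the numbers of genes called for T3 in TRB cells stayed within 1.5 times those reported: 2663 higher and 2639 lower by DESeq2 1.42.0, 2449 and 2416 with counts thinned to equal depth, and 2894 to 3335 and 2698 to 3303 on leaving out 1 library. For the difference between pools DESeq2 gave 1352 and 1183, and thinned counts 1297 and 1175. In EV cells the reported 413 and 247 were less stable. DESeq2 gave 271 and 136, no filter on low counts gave 136 lower, and thinned counts gave 143 lower. Without a filter 74.8% of EV calls were rises, against 62.6% reported. Leaving out 1 library gave 180 to 444 higher and 95 to 268 lower, with 180 and 95 when EV vehicle replicate 3 was dropped, 242 and 99 when it was EV T3 replicate 2, and 116 lower when it was EV vehicle replicate 1. The cause was not tested.

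Of 260 named genes 237 were called for T3 in TRB cells under every alternative run. Of the other 23 the account of T3 in TRB cells gives FAS alone, a choice made after their values were seen. MIF and PLIN1, also among the 23, are named only in this section. Some EV values that passed no test changed sign. APLN was at 0.66 with thinned counts and at -0.55 to 0.47 on leaving out 1 library, ERBB2 at -0.02 to 0.07 and TNC at -0.02 to 0.14. With thinned counts PLIN1 was at -0.02 and WNT4 at -0.1. Of 93 list counts of 5 or more, 9 moved by over 1.5 times, and these are given beside the lists. Of the smaller counts, falls of interleukins and cytokines went from 2 to 1 when MIF lost its call.

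With the replicate number as a block 3261 genes rose and 3176 fell in TRB cells, 402 and 245 in EV cells, and the differences numbered 1800 and 1693. Deviations of same-numbered libraries correlated at 0.004, 0.021 and 0.083 in the TRB pool and at -0.023, 0.051 and -0.013 in the EV pool. Differently numbered libraries correlated at -0.055 to 0.037 in the TRB pool and at -0.037 to 0.045 in the EV pool. These low values show no clear pairing by number, but with 3 libraries per group they cannot exclude it. The block ended the call of 1 gene named by the rule, MIF (adjusted p = 0.0683, edgeR).

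Replicates differed by 1.4 to 9.95 in mean chi-square per gene, more than counting noise. A few genes with many counts can dominate this mean. For EV vehicle replicates 1 and 2, the pair at 9.95, MT-RNR2 was at 19303 and 2410 CPM and MT-RNR1 at 8046 and 822 CPM. The spread without these 2 RNAs was not tested. Genes with a few counts in a group are limited by depth, most of all in EV vehicle libraries (4241863 to 7851876 counts).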
